A study of Mus musculus with 6 samples.

Results

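The ISG15 conjugation system attaches the small ubiquitin-like protein ISG15 to other proteins and removes it again. It was followed here as 5 genes picked by symbol: the modifier Isg15, its activating enzyme Uba7, its conjugating enzyme Ube2l6, its ligase Herc6 and its protease Usp18. All 5 were among the 24411 genes counted in each library. RNA was sequenced from primary mouse microglia, the macrophages that reside in the brain, in 3 libraries of cells given FTY720 (fingolimod, a drug that acts on sphingosine-1-phosphate receptors after phosphorylation) at 1 µM plus LPS (lipopolysaccharide, from the outer membrane of bacteria) at 10 ng/ml for 4 h, and in 3 libraries of cells given FTY720 at 1 µM alone for 4 h. Both groups therefore carried FTY720, and the comparison is of LPS added on top of it; cells with LPS alone or with neither agent are not analysed here. The cells came from whole brains of ICR pups aged 3 days, pooled from 12 animals, and were shaken off mixed glial cultures; more than 92% carried CD11b by flow cytometry, per the labels' protocols. The labels call the libraries independent RNA samples and do not say whether these came from separate pools of animals or separate cultures, so p-values measure the spread between RNA samples.

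ISG15 is made after type I interferon or microbial sensing and is built like a tandem of ubiquitin units. Uba7, the E1 enzyme, activates ISG15 and hands it to Ube2l6, the E2 enzyme; Herc6, the main E3 ligase in mouse, then joins it to target proteins, often while these are being made. Usp18 cuts ISG15 off its targets, and in a separate role it binds the interferon receptor chain Ifnar2 and dampens signalling. In mice, Usp18 is known as a brake on the interferon response of white matter microglia.

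The 5 genes changed by very different amounts when LPS was added. Isg15 rose 287-fold, and Herc6 and Usp18 rose 17.3-fold and 16.9-fold. Ube2l6 rose 1.77-fold, a call that some other settings did not keep. Uba7 did not pass the test, at 1.21-fold. The modifier, the ligase and the protease thus rose most. The conjugating enzyme rose less, and the activating enzyme did not pass the test.

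Gene reads numbered 2431775 to 2800738 per library with LPS added and 2729532 to 3454647 with FTY720 alone, of which transcripts that collect ribosomal RNA reads took 38.2% to 44.9% and 28.8% to 59.0%. Summed microglial markers stood at 2525 to 2846 CPM (gene counts scaled to a common library size, per 1000000 counts) with LPS and 1629 to 1808 CPM with FTY720 alone, with 7 of 8 tested markers higher. Summed oligodendrocyte-lineage markers stood at 142 to 163 CPM with LPS and 268 to 293 CPM with FTY720 alone (5 of 6 tested lower), and neuronal markers at 98.6 to 112 CPM and 184 to 248 CPM (4 of 4 lower). Astrocyte markers stood at 99.4 to 138 CPM with LPS and 87.1 to 107 CPM with FTY720 alone (2 of 6 higher, 1 lower), fibroblast and mural markers at 25.8 to 45.6 CPM and 21.4 to 42.1 CPM (0 of 4 called by edgeR, Rgs5 at 0 reads), and endothelial markers at 12.7 to 16.5 CPM and 5.01 to 9.35 CPM (1 of 1 tested higher). Lymphocyte markers had fewer than 10 reads each over all libraries, Cd3g at 0. The part of these markers in the results below was not tested. The third FTY720 library stood apart from its 2 replicates (chi-square per degree of freedom 3.5 and 4.39, against 1.31 between those 2); without it the log2 fold changes were 8.20 for Isg15, 0.23 for Uba7, 0.93 for Ube2l6, 4.31 for Herc6 and 4.05 for Usp18, and the same 4 genes were called. In bulk RNA, fewer cells of a type and less RNA per cell cannot be told apart.

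Promoter windows of the members were searched for exact matches to short motifs. RefSeq windows of 250 bases before to 50 after a transcription start (build GRCm38.p6) were at hand for 4 of the 5 genes, Usp18 being the exception. They are printed for Isg15 and Herc6, which rose, and for Uba7, which did not pass the test, with matches to the core of the interferon-stimulated response element (GAAANNGAA, either strand) in capitals.
Isg15, chr4:156200769-156201068, minus strand: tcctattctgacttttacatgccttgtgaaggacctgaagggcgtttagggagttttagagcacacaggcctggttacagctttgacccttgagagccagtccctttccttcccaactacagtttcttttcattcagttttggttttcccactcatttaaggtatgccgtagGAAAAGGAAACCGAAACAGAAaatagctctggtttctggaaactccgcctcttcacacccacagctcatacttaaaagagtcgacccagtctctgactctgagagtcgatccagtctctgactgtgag
Herc6, chr6:57580742-57581041, plus strand: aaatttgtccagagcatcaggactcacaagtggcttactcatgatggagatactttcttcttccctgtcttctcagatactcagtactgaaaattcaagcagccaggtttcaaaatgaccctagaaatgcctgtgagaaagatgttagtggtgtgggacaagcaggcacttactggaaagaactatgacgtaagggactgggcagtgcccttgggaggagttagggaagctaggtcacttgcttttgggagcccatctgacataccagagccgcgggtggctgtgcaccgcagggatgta
Uba7, chr9:107975317-107975616, plus strand: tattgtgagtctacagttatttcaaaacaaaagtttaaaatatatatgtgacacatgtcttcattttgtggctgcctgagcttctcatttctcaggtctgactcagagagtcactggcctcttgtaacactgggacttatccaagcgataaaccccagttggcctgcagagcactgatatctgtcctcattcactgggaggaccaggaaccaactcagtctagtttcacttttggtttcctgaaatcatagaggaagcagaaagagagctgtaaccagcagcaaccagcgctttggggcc

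The Isg15 window held 3 overlapping matches on its own strand, beginning 78, 72 and 66 bases before the start, which fuse into the single stretch in capitals. Of all 32851 promoter windows, 8.56% held at least 1 match and 0.0639% held 3 or more. The windows of Herc6, Uba7 and Ube2l6 held none (0 matches). Matches to 2 other motifs, the gamma-activated site (TTCNNNGAA, in 8.30% of windows) and a form of the NF-kappaB site (GGGANNTTC, in 3.94%), were absent from the 4 windows (0 matches). Among tested genes with a window, the response element core was present in 45 of 215 called genes that were at least 4-fold higher with LPS (20.9%) and in 691 of all 7800 (8.86%). The 2 other motifs were also more frequent there. The gamma-activated site was present in 25 of the 215 (11.6%) and 644 of the 7800 (8.26%). For the NF-kappaB form the numbers were 15 (6.98%) and 323 (4.14%). These are descriptions of exact letter matches in fixed windows. A window without a match may hold near matches, which were not searched, and says nothing of binding elsewhere.

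Isg15, the modifier itself, lies on chromosome 4 (156199424 to 156200818, minus strand, GRCm38, GENCODE M21). It had 1605, 1340 and 1279 reads in the libraries with LPS, against 7, 5 and 9 reads with FTY720 alone. The lowest LPS library stood 243 times above the highest FTY720 library in CPM. Isg15 averaged 602 ± 36.8 CPM with LPS and 2.04 ± 0.34 CPM with FTY720 alone (SD, n = 3 each). The log2 fold change was 8.17 ± 0.18 (SE; adjusted p = 1.6e-20, edgeR's quasi-likelihood test with Benjamini-Hochberg adjustment over all genes tested), with a 95% interval of 223-fold to 371-fold. The FTY720 group rests on 21 Isg15 reads in all.

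Uba7, the E1 enzyme, lies on chromosome 9 (107975505 to 107984060, plus strand). It had 12.7, 19.5 and 17.5 CPM with LPS (34, 46 and 35 reads), against 15.4, 12.7 and 12.7 CPM with FTY720 alone (46, 38 and 54 reads). The groups overlap, the first LPS library being level with FTY720 libraries 2 and 3. For Uba7 the log2 fold change was 0.28 ± 0.22 (SE, edgeR adjusted p = 0.317), and its 95% interval ran from 0.882-fold to 1.67-fold. A change of up to 1.67-fold is therefore within what these libraries allow. With total library size alone as the scaling, the estimate turned to -0.037 (adjusted p = 0.943).

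Ube2l6, the E2 enzyme, lies on chromosome 2 (84798828 to 84810335, plus strand). It had 11.6, 16.1 and 10.5 CPM with LPS (31, 38 and 21 reads), against 5.34, 8.01 and 8.0 CPM with FTY720 alone (16, 24 and 34 reads). Every LPS library lay above every FTY720 library, by 1.31 times at the closest. The log2 fold change was 0.82 ± 0.27 (SE, edgeR adjusted p = 0.0154), with a 95% interval of 1.20-fold to 2.60-fold. The call ended with DESeq2 (0.86, adjusted p = 0.0787), with total library size alone (0.52, adjusted p = 0.254), and in edgeR without the second LPS library (0.64, adjusted p = 0.113) or the first FTY720 library (0.67, adjusted p = 0.0759).

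Herc6, the E3 ligase, lies on chromosome 6 (57581000 to 57664632, plus strand). It had 192, 174 and 169 CPM with LPS (515, 411 and 338 reads), against 10.0, 8.01 and 12.2 CPM with FTY720 alone (30, 24 and 52 reads). The LPS libraries lay close together, and the lowest stood 13.8 times above the highest FTY720 library. For Herc6 the log2 fold change was 4.11 ± 0.16 (SE, edgeR adjusted p = 5.9e-16), with a 95% interval of 13.8-fold to 21.7-fold. In GENCODE M21, Herc6 shares 1269 exon bases with Gm45193 on the same strand, and Uba7 shares 233 with Gm20661; neither neighbour is a row of the deposited tables, so how its reads were counted was not tested.

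Usp18, the protease, lies on the same chromosome as Herc6 (121245906 to 121270917, plus strand). It had 80.2, 82.5 and 62.1 CPM with LPS (215, 195 and 124 reads), against 4.67, 4.34 and 4.24 CPM with FTY720 alone (14, 13 and 18 reads). The third LPS library was the lowest of its group and still stood 13.3 times above the highest FTY720 library. The log2 fold change was 4.08 ± 0.20 (SE, edgeR adjusted p = 6.3e-14), with a 95% interval of 12.7-fold to 22.6-fold.

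Of the 5 genes, 4 were called higher and 0 lower by edgeR, and Uba7, at an unadjusted p of 0.222, is the remaining gene. Among all 10124 genes tested, 23.3% were called higher and 22.7% lower, so a call alone is common in these libraries. All 3 LPS libraries lay above all 3 FTY720 libraries for 4 of the 5 genes, and for 27.1% of all genes tested. Isg15, Herc6 and Usp18 were called and at least 16-fold higher, as were 0.711% of all genes tested (72 genes); this bound was chosen with the members' values known, and Herc6 and Usp18 lie just above it. With upper-quartile factors Herc6 was 15.8-fold and Usp18 15.5-fold higher, and with total library size alone both were 13.7-fold higher, so that the count of 3 fell to 1 (Isg15), beside 63 and 56 of all genes. With both strands counted together the count was 2, Usp18 being 15.0-fold higher. The median log2 fold change over all genes tested was -0.036.

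**Figure D1:**
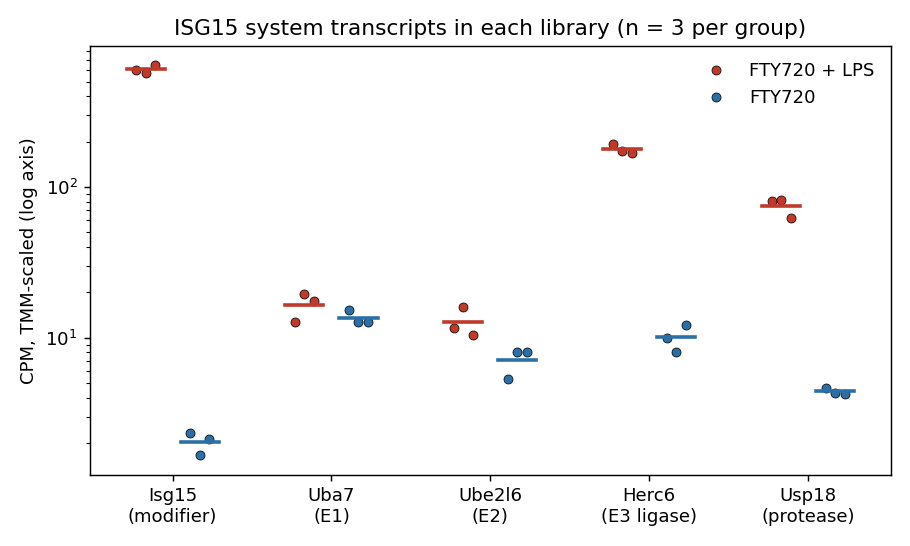
Transcript level of each of the 5 genes in each library, in CPM scaled with TMM factors on a log axis. Points are libraries (FTY720 with LPS on the left of each pair, FTY720 alone on the right) and bars are group means. Isg15 averaged 2.04 CPM with FTY720 alone and 602 CPM with LPS, and the Uba7 groups overlap. CPM is not divided by transcript length, so heights of different genes are not to be compared.

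**Figure D2:**
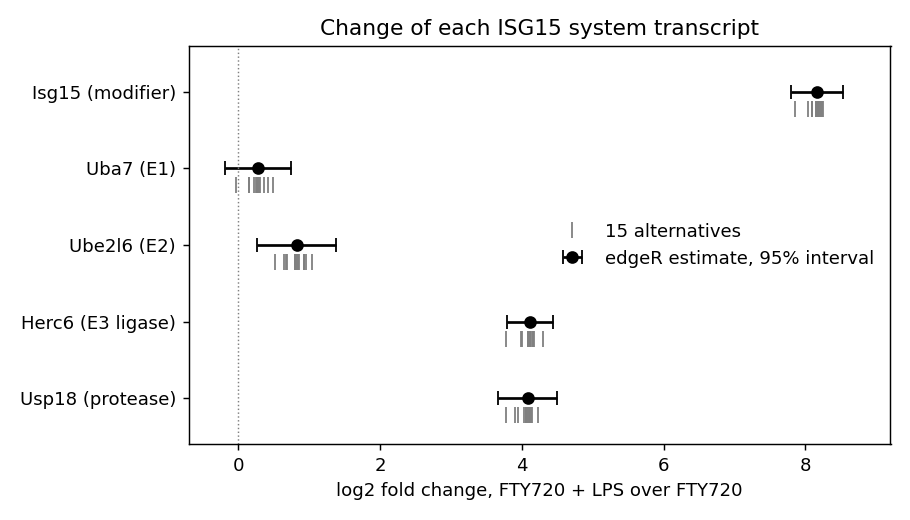
The log2 fold change of each gene, FTY720 with LPS over FTY720 alone, as the edgeR estimate with its 95% interval (points and bars) and under 15 alternative settings (grey ticks). Isg15 stays between 7.85 and 8.25 and Herc6 and Usp18 near 4, whereas the interval of Uba7 includes 0.

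Ratios between 2 of these genes inside a library do not depend on how libraries are scaled. For every 100 Isg15 reads there were 32.1, 30.7 and 26.4 Herc6 reads in the LPS libraries, against 429, 480 and 578 with FTY720 alone. For Usp18 there were 13.4, 14.6 and 9.70 reads per 100 Isg15 reads with LPS, against 200, 260 and 200 with FTY720 alone. Every enzyme had more reads than the modifier in every FTY720 library, and fewer in every LPS library. Reads are not divided by transcript length here, so this is not an order of transcript levels. Uba7 had 2.12 to 3.43 reads per 100 Isg15 reads with LPS and 600 to 760 with FTY720 alone, and Ube2l6 1.64 to 2.84 and 229 to 480.

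On the log2 scale, with 0.5 added to each count, the ratio to Isg15 with LPS minus that with FTY720 alone was -7.84 for Uba7, -7.28 for Ube2l6, -3.97 for Herc6 and -4.08 for Usp18. The groups did not overlap in any of these 4 ratios (exact two-sided permutation p = 0.1 each, 0.125 adjusted over the 10 pairs of members). A p of 0.1 is the smallest that 3 against 3 libraries allow. All 4 ratios share Isg15, whose lowest LPS library stood 243 times above its highest FTY720 library. Their separation therefore largely restates the change of Isg15 and is not 4 separate results. The ratio of Herc6 to Usp18 reads was 2.4, 2.11 and 2.73 with LPS and 2.14, 1.85 and 2.89 with FTY720 alone. Its log2 difference between the groups was 0.11, and the groups overlap (exact permutation p = 0.7, 0.7 adjusted). The ratio of Uba7 to Ube2l6 also overlapped between the groups, with a log2 difference of -0.56 (exact permutation p = 0.3, 0.333 adjusted). In the other 4 pairs, each of an E1 or E2 enzyme with the ligase or the protease, the groups did not overlap, with log2 differences from -3.87 to -3.20 (exact permutation p = 0.1 each, 0.125 adjusted).

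**Figure D3:**
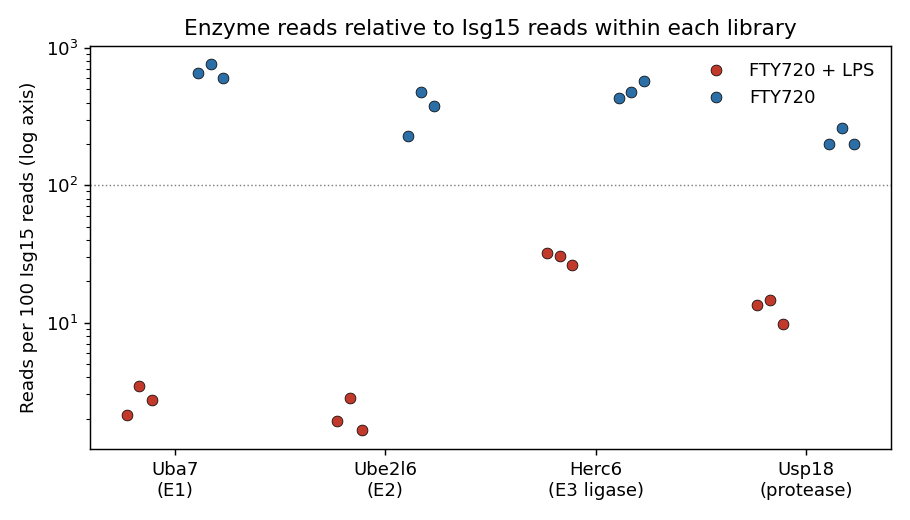
Reads of each enzyme per 100 Isg15 reads in the same library, on a log axis. Points are libraries (FTY720 with LPS on the left of each pair, FTY720 alone on the right). The dotted line marks equal numbers of reads, not divided by transcript length. All FTY720 points lie above it and all LPS points below it.

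Levels of different genes can be set side by side only per transcript length, here as CPM per kilobase of the longest protein-coding transcript. With LPS the levels ran from Isg15 at 796 ± 48.7 down through Usp18 at 42.3 ± 6.32, Herc6 at 37.4 ± 2.54 and Ube2l6 at 8.15 ± 1.90 to Uba7 at 5.18 ± 1.09 CPM per kilobase (SD, n = 3). Of these neighbours, only the values of Usp18 and Herc6 overlap between libraries. With FTY720 alone the 5 genes lay close together: Ube2l6 at 4.56 ± 0.988, Uba7 at 4.25 ± 0.479, Isg15 at 2.70 ± 0.45, Usp18 at 2.49 ± 0.128 and Herc6 at 2.12 ± 0.444 CPM per kilobase (SD, n = 3). There, Uba7 and Isg15 are the only neighbours without overlap. On this scale Isg15 made up 89.5% ± 1.45 of the summed level of the 5 genes with LPS and 16.7% ± 2.48 with FTY720 alone (SD, n = 3). Dividing instead by all annotated exon bases of a gene kept the order with LPS, put Isg15 above Uba7 with FTY720 alone, and gave Isg15 a share of 93.5% ± 0.984 and 24.6% ± 3.82.

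Each ISG15 enzyme belongs to a family that serves ubiquitin or other modifiers, and the families give a scale for its change. Counts of calls in the families stand beside 23.3% of all genes tested called higher and 22.7% called lower. Herc6 had the highest log2 fold change of the 5 tested HERC ligases. Of its 4 relatives, Herc2 was called higher (210 ± 24.7 CPM with LPS and 132 ± 21.3 CPM with FTY720 alone, 1.59-fold, adjusted p = 2.1e-04), and Herc1, Herc3 and Herc4 did not pass the edgeR test (log2 fold changes -0.27, -0.25 and -0.21). Usp18 had the highest of 42 tested ubiquitin-specific proteases. Its 41 relatives had 7 higher and 13 lower calls and a median of -0.052 on the log2 scale, from -1.74 for Usp30, a mitochondrial deubiquitinase (5.67 ± 0.22 CPM with LPS and 19.2 ± 2.52 CPM with FTY720 alone), to 1.22 for Usp16 (125 ± 5.41 CPM and 53.5 ± 7.70 CPM). Usp40 (-1.26 ± 0.22) and Usp35 (-1.22 ± 0.37) were also lower, although Usp35 stood at -0.11 with both strands counted together (adjusted p = 0.76) and lost its call with DESeq2 (adjusted p = 0.0791), with cyclic loess normalization (0.0649) and without the third LPS library (0.0731).

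The E1 and E2 enzymes of the system did not stand out in this way. Uba7 was in the fourth place of 9 tested E1 enzymes: of its 8 tested relatives 3 were called higher and 1 lower, the median being 0.24 on the log2 scale. Uba6, which charges ubiquitin and the interferon-linked modifier FAT10, was higher by 0.86 ± 0.14 (SE), and Nae1, part of the NEDD8 E1, by 0.50 ± 0.19. Atg7, the E1 of autophagy, was lower (-0.83 ± 0.19), and Uba1, the main ubiquitin E1, did not pass the edgeR test (0.28 ± 0.12, adjusted p = 0.0652). Ube2l6 was in the seventh place of 30 tested genes whose symbols begin with Ube2; of the other 29, 10 were called higher and 4 lower (median 0.33). Ube2f, an E2 of NEDD8, was the highest (72.1 ± 5.09 CPM with LPS and 26.3 ± 3.60 CPM with FTY720 alone; 1.45 ± 0.15 on the log2 scale), followed by Ube2s (1.40 ± 0.16), Ube2z, the E2 of FAT10 (1.11 ± 0.11), and Ube2a (0.92 ± 0.16). Ube2l3, the nearest relative of Ube2l6 and a ubiquitin E2, did not pass the edgeR test (111 ± 13.2 CPM and 93.6 ± 11.5 CPM; 0.24 ± 0.13, adjusted p = 0.134).

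These family counts depend on scaling and on the tool, as do the calls over all genes. Total library size alone moved the median log2 fold change over all tested genes to -0.354. It called 766 of all 10124 genes higher, against 2362 in the main fit. The counts called higher were then 0 E1 enzymes, 3 Ube2 genes, 0 HERC ligases and 2 proteases. DESeq2 called 5 proteases and 0 Ube2 genes lower, beside 1274 of all 12621 genes it tested (2297 of 10124 in the main fit). Leaving out 1 LPS library left 6 to 7 proteases lower, and without the first or the second 1 Ube2 gene. Without the second or the third FTY720 library 2 Ube2 genes were lower, and without the third, or with upper-quartile factors, 1 HERC ligase was lower. Nae1 lost its call in 8 of 15 alternatives. Uba6 (adjusted p = 0.143) and Ube2a (0.0956) lost theirs with total library size alone, and Herc2 with total library size alone (adjusted p = 0.333) and after cyclic loess normalization, which removes a trend of fold change on expression level (adjusted p = 0.254).

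**Figure D4:**
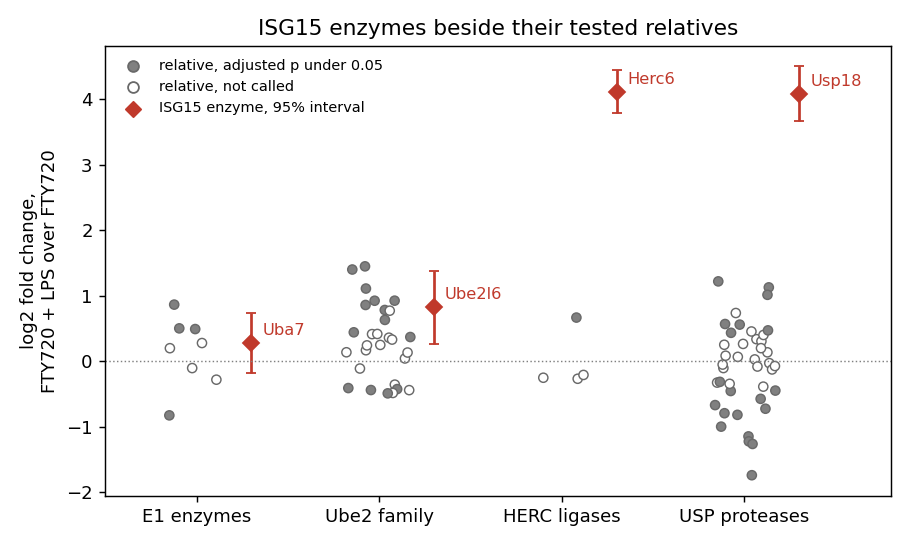
The log2 fold change, FTY720 with LPS over FTY720 alone, of each tested E1 enzyme, Ube2 gene, HERC ligase and ubiquitin-specific protease (circles, filled where edgeR adjusted p is under 0.05; sideways spread has no meaning) and of the ISG15 enzyme of each family (diamonds with 95% intervals). Herc6 and Usp18 lie near 4, above all tested relatives, which reach 0.66 and 1.22; Uba7 and Ube2l6 lie within the range of theirs.

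The other ubiquitin-like systems were compared through 28 listed genes, mostly modifiers, E1 and E2 enzymes, several of which also stand in the family lists. Of 26 tested, 11 were called higher and 3 lower, beside 23.3% higher and 22.7% lower among all genes tested. Their median was 0.22 and their highest value 1.45 on the log2 scale. None (0) of these 26 reached the change of Isg15, Herc6 or Usp18; the modifiers Nedd8 (0.42 ± 0.16) and Ufm1 (0.43 ± 0.15) were higher and Sumo3 was lower (-0.56 ± 0.16). Ubd, which encodes FAT10, had 0 reads in all 6 libraries. With total library size alone 2 of the 26 were called higher, with upper-quartile factors 6, and without the first FTY720 library 7. Higher calls over all genes then numbered 766, 1885 and 2072, against 2362 in the main fit. Without the second LPS library 1 was lower, beside 1727 of all genes (2297 in the main fit).

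Further enzymes are reported, mostly from human cells, to attach ISG15 or to remove it. Of 8 listed, 7 were tested, with 3 higher and 2 lower, beside 23.3% higher and 22.7% lower among all genes tested. Trim25, a ubiquitin ligase reported as an ISG15 ligase, rose to 95.5, 94.8 and 95.6 CPM with LPS, against 52.7, 45.4 and 24.2 CPM with FTY720 alone (1.25 ± 0.19 on the log2 scale, SE, edgeR adjusted p = 8.7e-06). The LPS libraries lay within 1 CPM of each other, and the third FTY720 library was the lowest. Arih1, the other ligase reported for ISG15, rose by 0.92 ± 0.11 (SE), but with total library size alone its call ended (0.58, adjusted p = 0.105). Usp16, a protease reported to remove ISG15, rose 2.33-fold, whereas Usp21 (-1.0 ± 0.22) and Usp2 (-0.82 ± 0.27), which react with ISG15 in human assays, were lower. Lower calls numbered 1 with DESeq2, after cyclic loess normalization and without the third LPS library. Over all genes, lower calls numbered 1274, 1865 and 1838 in these settings, against 2297 in the main fit.

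Of 17 proteins reported to carry ISG15, again mostly from human cells, 12 had transcripts called higher and 1 lower (median log2 fold change 0.78). Among all genes tested, 23.3% were higher and 22.7% lower. Mx1, an antiviral GTPase, rose to 99.8 ± 12.0 CPM with LPS, against 0.837 ± 0.729 CPM with FTY720 alone (SD, n = 3 each; 6.76 ± 0.29 on the log2 scale, SE). Ifit1, which binds viral RNA, rose to 93.3 ± 15.4 CPM against 1.13 ± 0.493 CPM. The RNA sensors Ifih1 (4.83 ± 0.15) and Ddx58 (2.34 ± 0.34) followed. The list was assembled from targets that include interferon-stimulated genes, so its direction is partly set by that choice. The lower call, Plcg1 (-0.67 ± 0.24, adjusted p = 0.0247), was not made in 6 of 15 alternatives.

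LPS is known to reach these genes partly through interferon beta and its receptor. Ifnb1, which encodes interferon beta, had 19 reads in the LPS libraries and 0 with FTY720 alone, at least 9.21-fold higher against a floor of 3 reads over the group; it was too low to be tested. Factors of the complex that binds the response element rose: Stat2 had 88.4, 89.7 and 74.6 CPM with LPS, against 25.0, 25.4 and 19.8 CPM with FTY720 alone (1.86 ± 0.15 on the log2 scale, SE), and Irf9 rose by 1.31 ± 0.15. Ifnar2, the receptor chain that Usp18 binds, was higher by 0.64 ± 0.14, Ifnar1 did not pass the edgeR test (0.27 ± 0.11, adjusted p = 0.0504) and the receptor kinase Tyk2 was lower (-0.75 ± 0.18). In all, 5 of 7 tested genes of this list were called higher and 1 lower, or 3 higher with total library size alone. The shares among all genes tested were 23.3% higher and 22.7% lower in the main fit. With total library size alone 766 of all genes were called higher, against 2362 in the main fit.

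Of 10 genes listed from the LPS receptor to the transcription factors Irf3 and Irf7, 3 were called higher and 1 lower (median 0.037). The share called higher was near that among all genes tested (23.3% higher, 22.7% lower). Irf7, an interferon-induced factor that extends the response, rose to 106, 106 and 95.6 CPM with LPS, against 3.00, 7.01 and 4.24 CPM with FTY720 alone (4.44 ± 0.20 on the log2 scale, SE), a change of the same order as that of Herc6 and Usp18. Irf3, which is switched on by phosphorylation, stood at 23.7 ± 4.82 CPM with LPS and 30.7 ± 2.15 CPM with FTY720 alone (-0.36 ± 0.18, edgeR adjusted p = 0.109), and was called lower with upper-quartile factors (-0.49, adjusted p = 0.0277) and without the third FTY720 library (-0.41, adjusted p = 0.0497). Cd14, the LPS co-receptor, averaged 2071 ± 85.6 CPM with LPS and 475 ± 41.3 CPM with FTY720 alone, and Tlr4, the receptor, 12.3 ± 1.37 CPM and 56.2 ± 10.3 CPM. Ikbke, an Irf3 kinase, was higher by 0.64 ± 0.18 (0.32, adjusted p = 0.433, with total library size alone). With upper-quartile factors or without the third FTY720 library, lower calls in the list numbered 2. Over all genes, lower calls numbered 2969 and 2495 in these settings, against 2297 in the main fit.

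Secreted ISG15 is reported to bind the integrin LFA-1. Of its subunits, Itgal stood at 0.021 ± 0.21 on the log2 scale and was not called, and Itgb2 was higher (178 ± 2.65 CPM with LPS and 124 ± 23.0 CPM with FTY720 alone, adjusted p = 0.00198), a call lost with total library size alone (adjusted p = 0.556) and after cyclic loess normalization (adjusted p = 0.587).

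Likeness of expression was measured as the root mean square difference between log2 CPM profiles over the 6 libraries, each centred on its own mean; it mostly reflects the size of the change and shares the libraries and their depth. Nearest to Isg15 were the chemokine genes Cxcl10 (difference 0.168) and Cxcl2 (0.186). Cxcl10 had 1093 reads with LPS and 1 with FTY720 alone, a ratio of 1589 with a 95% counting interval from 285 to 62829, so its profile rests on the prior count. Nearest to Herc6 were Ifi204, an interferon-inducible DNA sensor (0.164), and Plaur, the urokinase receptor (0.195), and Usp18 was the sixth nearest (0.227). Nearest to Usp18 were Gm826 (0.0748), which had 106 reads with LPS and 3 with FTY720 alone (ratio 51.4, 95% counting interval 17.1 to 253) and whose closeness likewise rests on the prior count of 2, and Bcl2a1d, a survival gene of the BCL2 family (0.0992). Bcl2a1d and Ifi204 have close paralogs, and reads shared with these may be missing from their counts. Nearest to Uba7 were Rassf1 (0.0395) and Metap2 (0.0641), which were likewise not called, and nearest to Ube2l6 were Pole4 (0.0754) and Mad2l1bp (0.0781), which were called higher by 0.78 ± 0.17 and 0.73 ± 0.21 on the log2 scale. With total library size alone both lost the call (adjusted p = 0.226 and 0.311), as did Mad2l1bp without the second LPS library (0.0557).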

How the data were processed

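Strand-specific libraries of rRNA-depleted total RNA were sequenced on an Illumina instrument, per the labels' protocols. Per the submitters' processing notes, STAR 2.5.1, Trimmomatic 0.33, CASAVA 1.8.2, DESeq2 and build mm10 were used; neither the annotation nor the settings are known here. The authors deposited raw read counts per gene for each library, in the layout of STAR's gene counts, which hold uniquely mapped reads. Sense counts (98.4% to 98.9% of both strands) were used, and the summary rows at the head of each table were left out: 24.4% to 27.0% unmapped, 7.69% to 8.15% multimapping, 42.2% to 44.5% outside features and 0.0748% to 0.114% ambiguous reads.

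Counts of all genes were tested with edgeR 4.0.16 (R 4.3.3; quasi-likelihood test, TMM factors, filterByExpr with minimum count 10), which kept 10124 of 24411 genes and all 5 members. Adjusted p-values are Benjamini-Hochberg values with a threshold of 0.05. SE is the absolute log2 fold change over the square root of F. Alternatives included DESeq2 1.42.0 and limma 3.58.1. A floor of 3 reads is 0.868 to 1.23 CPM; intervals cover counting error where so named. Every pair of replicates differed by more than sampling noise (chi-square per degree of freedom 1.28 to 4.39, rRNA-like genes left out). The fit was tested on simulated data with fewer changed genes than were called here and smaller folds than those of Isg15, Herc6 and Usp18. That test therefore does not bear on the calls above. Exon lengths and positions came from GENCODE M21, and promoter sequences from RefSeq, both on GRCm38. The members, lists and tests were chosen with earlier results of these data known. Named beyond the members were, per list, up to 4 called genes with the largest change and a mean log2 CPM of at least 1, or the 2 most abundant with none called, the 2 genes most like each member, and 9 genes picked by role, some of which are not reported here; Sumo3, Nedd8, Ufm1, Ubd, Usp2, Plcg1, Ifnar1, Ifnar2, Herc1, Herc3, Herc4 and Itgal were named after their values were seen.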

Additional observations from a re-analysis of the deposited data

Results flagged for a closer look

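Reads on the strand opposite to a gene were not used in the comparisons, and for 2 of the 5 genes they were more numerous in every LPS library than in every FTY720 library, as raw reads. Of the 3442 tested genes with at least 10 opposite-strand reads over the 6 libraries, 6.80% had such a separation with LPS above and 7.99% with LPS below. Isg15 had 15 opposite-strand reads with LPS (6, 7 and 2), against 1 with FTY720 alone (1, 0 and 0); these were 0.354% and 4.55% of its reads on both strands. Herc6 had 11 with LPS (2, 6 and 3), against 0 with FTY720 alone; these were 0.863% of its reads with LPS. Over all genes, 1.06% to 1.61% of gene reads lay on the opposite strand in the 6 libraries. Usp18 had 7 with LPS and 6 with FTY720 alone (1.29% and 11.8%); GENCODE M21 places the long noncoding gene Gm44148 on its opposite strand, sharing 124 exon bases. With both strands counted together the log2 fold change of Usp18 was 3.90 and that of Isg15 8.09.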

How the results depend on the processing

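Across 15 alternatives the calls of Isg15 (log2 fold change 7.85 to 8.25), Herc6 (3.78 to 4.31) and Usp18 (3.78 to 4.22) stayed on the same side of the threshold, as did the lack of a call for Uba7. Uba7 turned to -0.037 with total library size alone. Ube2l6 lost its call there (0.52), with DESeq2 (0.86) and without the second LPS or the first FTY720 library (0.64 to 0.96 over the fits that leave out 1 library). Of 66 tested pathway genes 33 were called higher, and 16 with total library size alone. Lower calls there numbered 8, and 5 with DESeq2 or cyclic loess. Of 82 tested enzyme family genes 21 were called higher, and 5 with total library size alone. Their lower calls numbered 18, and 6 with DESeq2 and 9 to 17 with 1 library left out (9, 9 and 10 without an LPS library). Among all genes tested, 23.3% were called higher and 22.7% lower in the main fit. Total library size alone called 766 of 10124 higher. Lower calls over all genes numbered 1274 of 12621 with DESeq2, 1865 of 10124 with cyclic loess and 1700 to 2495 with 1 library left out. With total library size alone Rassf1 (-0.10), Metap2 (-0.12), Ube2l3 (-0.10) and Uba1 (-0.026) turned, as did Ube2l3 (-0.072) and Uba1 (-0.11) with cyclic loess. Ube2l3 was called higher without the third FTY720 library (adjusted p = 0.00847), and Uba1 without the first LPS (0.0456) or second FTY720 library (0.0247). The cause was not tested. The log2 ratios of the 4 enzymes to Isg15 kept their sign with both strands counted, with no pseudocount and without any 1 library. The libraries carry replicate numbers, and the labels do not say that these pair libraries. Deviations of same-numbered libraries from their group means had correlations of -0.022, -0.026 and -0.073. Deviations from a mean of 3 libraries are tied to each other, so these correlations cannot decide whether the numbers pair libraries. With a replicate block edgeR called 2292 genes higher and 2171 lower, against 2362 and 2297 without; Ube2l6 stood at 0.83 (adjusted p = 0.0192), Uba7 at 0.27, Isg15 at 8.18, Herc6 at 4.12 and Usp18 at 4.05. Depth limits Isg15 with FTY720 alone (5 to 9 reads a library) and Ube2l6 (16 to 38 reads).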
